A study of Mus musculus with 16 samples.

Results

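Dkk2, Pianp and Kcnk9 are 3 genes that were expressed in App knock-in libraries and close to absent from wild-type libraries of mouse brain cells sorted as oligodendrocytes. They were chosen by symbol from the 53801 genes of the deposited table, as members of the 25 genes that the control-diet genotype contrast called with a log2 fold change over 6. The limit of 6 did not use the high-fat values, but the 3 were picked with earlier results of these data known. On the high-fat diet all 3 were higher in the knock-in, Dkk2 by 6.01, Pianp by 6.66 and Kcnk9 by 6.19 on the log2 scale. The control-diet values set that limit and are therefore given as a description only.

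The study sequenced poly(A) RNA of oligodendrocyte-lineage cells taken by magnetic sorting from the brains of 16 male mice, 4 per group. App_HFD mice carried the homozygous App NL-G-F knock-in and ate a high-fat diet (524 kcal per 100 g, 60.0% of energy as fat). WT_HFD mice were C57BL/6J Jcl wild type on the same diet. App_NCD and WT_NCD were the same genotypes on a normal control diet (345.0 kcal per 100 g, 12.5% of energy as fat). Diets ran for 6 months from 2 months of age, so all mice were sampled at 8 months. The knock-in puts a humanised amyloid-β sequence with the Swedish, Beyreuther/Iberian and Arctic mutations into the mouse's own App gene, so it acts in all cells that use that gene and at all ages. The wild-type mice were purchased and the knock-in mice bred as inbred lines, so origin and genotype cannot be told apart. Numbers such as 553 in App_NCD 553 are the labels' mouse numbers.

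Dkk2 encodes a secreted Dickkopf protein, which binds the Wnt co-receptors Lrp5 and Lrp6 and the Kremen proteins and so modulates Wnt/β-catenin signalling. Pianp encodes the PILRα-associated neural protein, a membrane protein described as a ligand of the inhibitory myeloid receptor PILRα and as a partner of the GABA-B receptor. Kcnk9 encodes TASK-3, a two-pore-domain potassium channel that carries a background leak current. It is an imprinted gene that the brain reads mainly from the maternal copy, and its closest relative is Kcnk3 (TASK-1). Microglia, the brain's resident immune cells, take on a distinct state at amyloid plaques, in which genes such as Gpnmb, Spp1, Itgax and Lpl are switched on.

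The genes lie on different chromosomes in GRCm38, and none lies on chromosome 16, which holds App. Dkk2 (ENSMUSG00000028031) spans chr3:132085292-132180304 on the plus strand, with 3705 exonic bases in GENCODE M21. Pianp (ENSMUSG00000030329) spans chr6:124996694-125003096 on the plus strand, with 2851 exonic bases. Kcnk9 (ENSMUSG00000036760) spans chr15:72501089-72546340 on the minus strand, with 12300 exonic bases. No annotated gene overlaps any of the 3, so their reads had no overlapping partner to be divided with. RefSeq start-site windows (GRCm38.p6, 250 bases before to 50 after the start) were found for Dkk2, with 1 start, and for Pianp, with 3 starts. The windows are shown because the genes moved together, and capitals mark a match to 1 of 4 motifs searched on both strands, namely GAGGAAGT for PU.1 and other ETS factors, TGANTCA for AP-1 factors, CACGTG for E-box factors, and TATAAA for the TATA box.
Dkk2, chr3:132085042-132085341, plus strand: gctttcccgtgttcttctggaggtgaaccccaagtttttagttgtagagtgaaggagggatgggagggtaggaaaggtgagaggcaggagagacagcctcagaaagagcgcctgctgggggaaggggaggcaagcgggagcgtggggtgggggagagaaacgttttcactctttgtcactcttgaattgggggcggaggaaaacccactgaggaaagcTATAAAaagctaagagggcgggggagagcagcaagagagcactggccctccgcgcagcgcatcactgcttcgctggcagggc
Pianp, the first start, chr6:124996470-124996769, plus strand: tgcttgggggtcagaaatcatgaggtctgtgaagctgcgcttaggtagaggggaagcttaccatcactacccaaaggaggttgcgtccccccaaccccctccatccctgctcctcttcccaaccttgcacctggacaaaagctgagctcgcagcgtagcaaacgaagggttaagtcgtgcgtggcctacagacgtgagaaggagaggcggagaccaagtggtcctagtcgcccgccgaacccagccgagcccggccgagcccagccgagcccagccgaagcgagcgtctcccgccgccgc
Pianp, the third start, chr6:124998360-124998659, plus strand: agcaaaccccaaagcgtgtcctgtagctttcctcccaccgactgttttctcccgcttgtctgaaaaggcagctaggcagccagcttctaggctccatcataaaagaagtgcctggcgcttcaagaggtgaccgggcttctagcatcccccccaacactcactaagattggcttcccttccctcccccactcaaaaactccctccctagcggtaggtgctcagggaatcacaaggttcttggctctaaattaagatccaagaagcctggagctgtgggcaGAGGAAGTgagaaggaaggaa
The Dkk2 window held TATAAA 32 bases before its start, and that motif occurred in 13.6% of 32851 mouse windows of the same length. The third Pianp window held GAGGAAGT at position 29 after its start, a motif found in 3.2% of all windows. The first Pianp window matched no motif, and neither did the second, which overlaps the third. TGANTCA occurred in 7.81% and CACGTG in 7.15% of all windows and in none of those of Dkk2 or Pianp. Thus the windows of Dkk2 and Pianp shared no match to the motifs searched. GC content was 57.7% in the Dkk2 window, 62.7% in the first Pianp window and 53.3% in the third.

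Library totals ran from 64538297 to 84114322 counts in App_HFD, 90220118 to 101737328 in WT_HFD, 69772745 to 101709022 in App_NCD and 98588561 to 217925484 in WT_NCD. App_NCD 553 stood apart, with 39.4% of its counts from mitochondrial genes and 18928 detected genes, against 1.22 to 4.62% and 27151 to 30617 genes in the other 15 libraries. It enters the shared estimate of spread, and without it 2401 genes were called higher and 1906 lower in App_HFD than in WT_HFD, against 1108 and 446 with it; counts for gene lists that move with it are given both ways. App itself was at 2141 to 2551 CPM (counts per 1000000 of the TMM-adjusted library total) in App_HFD, against 2719 to 3383 in WT_HFD. It was thus lower without overlap (exact two-sided permutation test, p = 0.0286, unadjusted and the smallest that 4 against 4 libraries allow). Such separation was common: 15% of all genes tested were higher without overlap, and the share lower without overlap was not counted. The knock-in's changed bases are not visible in a gene count, so this level does not check the genotype. Markers of mature oligodendrocytes were abundant in all groups: the summed level of 10 such genes was 31390 to 43320 CPM in App_HFD against 36890 to 44370 CPM in WT_HFD. On the high-fat diet none of the 10 passed edgeR's test (lowest adjusted p 0.111, of Opalin), and 1 was lower without App_NCD 553. Microglial markers were also present in all libraries, as described below.

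Dkk2 was at 23.2, 25.6, 18.2 and 13.8 CPM in App_HFD (mice 547, 559, 560 and 561), against 0.236, 0.386, 0.194 and 0.430 CPM in WT_HFD (mice 2, 3, 15 and 16). The groups did not overlap, and 561 was the lowest of the knock-in libraries. Dkk2 averaged 20.2 ± 5.28 CPM in App_HFD and 0.311 ± 0.114 CPM in WT_HFD (SD, n = 4 each). Its log2 fold change was 6.01 ± 0.39 (SE), a 64.6-fold difference, with an adjusted p of 2.85e-07 by edgeR's quasi-likelihood test.

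Pianp was at 44.8, 56.4, 40.9 and 24.2 CPM in App_HFD, in the same order of mice, against 0.367, 0.462, 0.340 and 0.470 CPM in WT_HFD. Again 561 was the lowest knock-in library, and it was still far above every wild-type library. The means were 41.6 ± 13.3 CPM in App_HFD and 0.410 ± 0.0659 CPM in WT_HFD (SD, n = 4 each). The log2 fold change was 6.66 ± 0.33 (SE), or 101.2-fold, with an adjusted p of 2.17e-08 by the same test.

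Kcnk9 was at 6.18, 7.11, 5.56 and 4.73 CPM in App_HFD, against 0, 0.122, 0.116 and 0.0800 CPM in WT_HFD. The wild-type values rest on 0, 13, 12 and 8 counts, and the count of 0 in WT_HFD 2 allows a level of up to 0.0295 CPM (3 counts, counting error only). Means were 5.89 ± 1.00 CPM in App_HFD and 0.0797 ± 0.0564 CPM in WT_HFD (SD, n = 4 each). The log2 fold change was 6.19 ± 0.62 (SE), or 72.9-fold, with an adjusted p of 1.89e-05 in edgeR's test. Without WT_HFD 2 it was 5.75, and without App_NCD 553, which enters the shared estimate of spread, it was 6.17. Kcnk9 passed the expression filter through its knock-in libraries, and with no filter its log2 fold change was 6.16.

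Each of the 3 was higher in all 4 App_HFD libraries than in any WT_HFD library, which gives an exact two-sided permutation p of 0.0286, the smallest that 4 against 4 libraries allow. Of all 21768 genes tested, 5.09% were called higher and 2.05% lower in App_HFD than in WT_HFD, and 15% were higher without overlap. Ordered by log2 fold change on the high-fat diet, Pianp was number 13, Kcnk9 number 18 and Dkk2 number 21 of 21768 genes. When only the 8 high-fat diet libraries were fitted, the log2 fold changes were 5.96 for Dkk2, 6.61 for Pianp and 6.14 for Kcnk9, with edgeR adjusted p of 8.68e-06, 4.45e-06 and 0.000109.

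**Figure D1:**
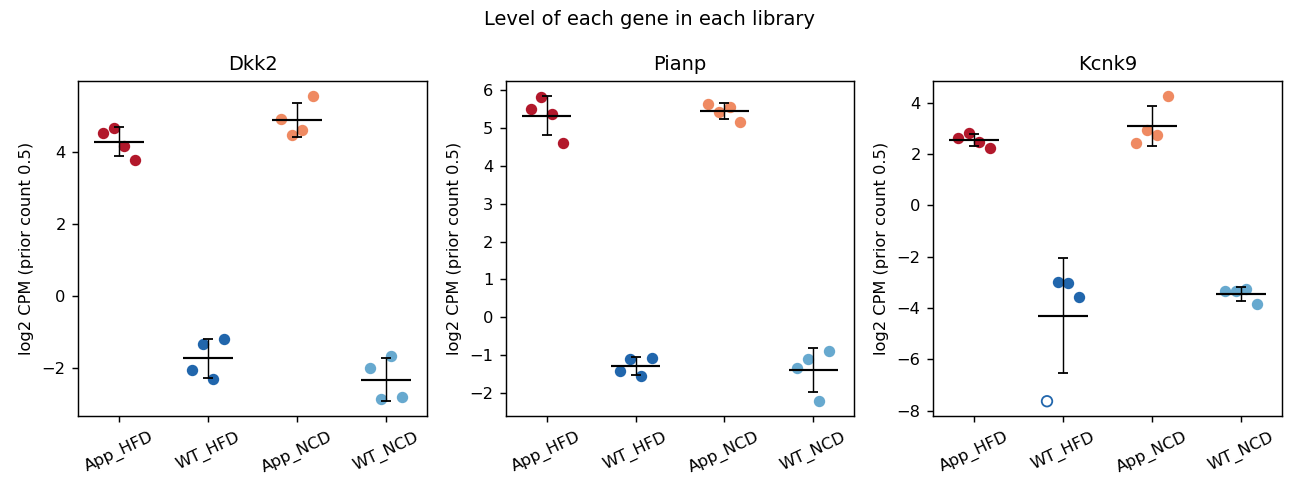
Level of Dkk2, Pianp and Kcnk9 in each of the 16 libraries on a log2 CPM scale (prior count 0.5), by group, with the mean (line) and SD (bar) of 4 libraries. In each panel every App library lies above every WT library; the hollow point is the Kcnk9 count of 0 in WT_HFD 2, and the highest Dkk2 and Kcnk9 points in App_NCD are library 553.

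The control-diet levels, from which the genes were chosen, had the same shape. Dkk2 was at 30.4, 22.6, 24.9 and 47.3 CPM in App_NCD (mice 537, 538, 545 and 553) and at 0.244, 0.131, 0.310 and 0.138 CPM in WT_NCD (mice 4, 5, 11 and 12). Pianp was at 49.6, 42.5, 47.0 and 35.6 CPM in App_NCD and at 0.389, 0.460, 0.211 and 0.533 CPM in WT_NCD. Kcnk9 was at 5.44, 7.56, 6.75 and 19.0 CPM in App_NCD and at 0.0940, 0.0938, 0.0986 and 0.0643 CPM in WT_NCD. In CPM, App_NCD 553 was the highest library for Dkk2 and Kcnk9 and the lowest of its group for Pianp. Its TMM factor was 0.493, against 0.984 to 1.112 in the other libraries, which raises its CPM. Relative to library totals it was not the highest for Dkk2, with 1666 of 71444546 counts against 3202 of 101709022 in 537. For Kcnk9 it stayed the highest of its group, with 669 counts against 626 of 81807317 in 538. The log2 fold changes were 7.21 for Dkk2, 6.78 for Pianp and 6.75 for Kcnk9, and without 553 they were 6.90, 6.85 and 6.17. In that contrast 6.5% of all genes tested were called higher and 7.66% were higher without overlap. Just above the limit of 6 that chose the genes were Gm48840 at 6.03 and Il4i1 at 6.02, and just below it were Olfr110 and A930002C04Rik, both at 5.88. On the high-fat diet the log2 fold change was 0.10 for Gm48840, 5.77 for Il4i1, 5.68 for Olfr110 and 4.29 for A930002C04Rik.

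Across both diets the lowest knock-in library exceeded the highest wild-type library 32.0-fold for Dkk2, 45.5-fold for Pianp and 38.6-fold for Kcnk9. Of all genes tested, 4.44% were higher in all 8 App libraries than in any of the 8 WT libraries. In counts, knock-in libraries held 1188 to 3202 for Dkk2, 1254 to 5228 for Pianp and 364 to 669 for Kcnk9. Wild-type libraries held 14 to 57 for Dkk2, 30 to 91 for Pianp and 0 to 22 for Kcnk9. Low wild-type levels are therefore measured with far less precision than the knock-in levels.

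Per kilobase of exon, Pianp averaged 14.6 CPM, Dkk2 5.45 and Kcnk9 0.479 in App_HFD, against 0.144, 0.0841 and 0.00648 in WT_HFD. In App_NCD, 553 included, the same quantity was 15.3 for Pianp, 8.44 for Dkk2 and 0.787 for Kcnk9, against 0.140, 0.0555 and 0.00713 in WT_NCD. Pianp stood above Dkk2 per kilobase in every App_HFD library, at 8.50 to 19.8 against 3.72 to 6.92. In App_NCD 553 the order was turned, at 12.5 for Pianp and 12.8 for Dkk2. The ratio of Pianp to Dkk2 in CPM was 0.753 in 553 and 1.63 or more in the other 7 knock-in libraries.

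Diet differences within a genotype were small beside the genotype differences and are described without a test, since they share the App_NCD or WT_NCD libraries with the choice of genes. In log2 units, App_HFD minus App_NCD was -0.63 for Dkk2, -0.07 for Pianp and -0.71 for Kcnk9, and without 553 it was -0.36 for Dkk2, -0.15 for Pianp and -0.15 for Kcnk9. WT_HFD minus WT_NCD was 0.57 for Dkk2, 0.05 for Pianp and -0.15 for Kcnk9. The App_HFD and App_NCD libraries overlapped for Pianp and Kcnk9, and for Dkk2 only through 2 libraries of App_HFD that lay above the lowest of App_NCD.

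The libraries hold RNA of microglia beside that of oligodendrocytes, and in such bulk samples more cells of a type cannot be told apart from more RNA per cell. Of 24 genes of the plaque-associated microglial state, 22 were higher and 0 lower in App_HFD than in WT_HFD (23 and 0 without App_NCD 553). Their median log2 fold change was 2.73, against 0.01 over all genes, of which 5.09% were higher and 2.05% lower. Gpnmb, a glycoprotein of phagocytes, was at 401 CPM in App_HFD against 3.58 CPM in WT_HFD, and Igf1, a growth factor, was at 114 CPM in App_HFD against 6.03 CPM in WT_HFD. Of 15 genes of homeostatic microglia, 13 were higher and 0 lower, with a median of 1.32, and 6 were higher with library totals alone. Among them C1qb, a chain of complement C1q, was at 1189 CPM in App_HFD against 286 CPM in WT_HFD. No gene of either list was at 0 in a whole group.

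The summed level of the homeostatic list was 9415 to 15870 CPM in App_HFD against 3113 to 5839 CPM in WT_HFD, and 7677 to 14510 CPM in App_NCD and 4136 to 6809 CPM in WT_NCD. For the plaque list the sums were 23510 to 38320 CPM in App_HFD against 6010 to 7131 CPM in WT_HFD, and 18010 to 36020 CPM in App_NCD and 6890 to 8980 CPM in WT_NCD. Within App_HFD the 4 libraries stood in the order 561, 560, 547, 559, low to high, for Dkk2, Pianp, Kcnk9 and both sums. How many of all genes share that order was not counted, and the other cell lists were not examined for it. Of single plaque-list genes, Gpnmb, Itgax and Lpl had that order, and Spp1 and Tyrobp did not. Divided by the homeostatic sum, Dkk2 varied less between the App_HFD libraries. It was at 1.46 to 1.62 CPM per 1000 CPM of the list, with a coefficient of variation of 4.37% against 26.2% for its CPM. For Pianp the ratio was 2.57 to 3.56 (14.0% against 32.0%) and for Kcnk9 0.424 to 0.502 (7.22% against 17.0%). With all libraries kept, division did not narrow the spread of Pianp and Kcnk9 in the other groups. In App_NCD, with 553, the coefficient of variation was 72.0% for the ratio against 35.7% for the CPM of Dkk2, 20.8% against 14.0% for Pianp and 101.9% against 64.7% for Kcnk9. Without 553, Kcnk9 ran from 5.44 to 7.56 CPM there and its ratio from 0.451 to 0.526. In relative terms the ratio then spread less than the CPM for Kcnk9, but more for Dkk2 and Pianp. In WT_HFD it was 34.9% against 36.7% for Dkk2 and 83.7% against 70.7% for Kcnk9, and in WT_NCD 42.8% against 42.0% for Dkk2 and 45.5% against 34.6% for Pianp. It was also larger for the ratio for Pianp in WT_HFD and for Kcnk9 in WT_NCD.

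That ratio also differed between genotypes. It was 0.0593 to 0.118 for Dkk2, 0.0805 to 0.142 for Pianp and 0 to 0.0376 for Kcnk9 in WT_HFD, all below the App_HFD ranges. The mean ratio in App_HFD was 19.7 times that in WT_HFD for Dkk2, 29.8 times for Pianp and 20.8 times for Kcnk9. With the plaque sum as divisor the step was smaller, at 13.6 times for Dkk2, 20.9 times for Pianp and 15.1 times for Kcnk9. Scaling the libraries to the homeostatic list gave log2 fold changes of 4.54 for Dkk2, 5.14 for Pianp and 4.66 for Kcnk9 on the high-fat diet, with edgeR adjusted p of 2.09e-05, 8.87e-08 and 0.000301. That scaling moved the median of all genes to -1.46, and under it 17 of the 24 plaque-state genes were higher and 1 lower, with a median of 1.24. WT_HFD 16 and WT_NCD 4 had the highest homeostatic sums among wild-type libraries (5839 and 6809 CPM). WT_HFD 16 was the highest of its group for Dkk2 and Pianp but not for Kcnk9, and WT_NCD 4 was the highest of its group for none of the 3. App_NCD 553 had the lowest knock-in sum, 7677 CPM, with the highest Dkk2 and Kcnk9 in CPM, a measure that its TMM factor of 0.493 raises.

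**Figure D2:**
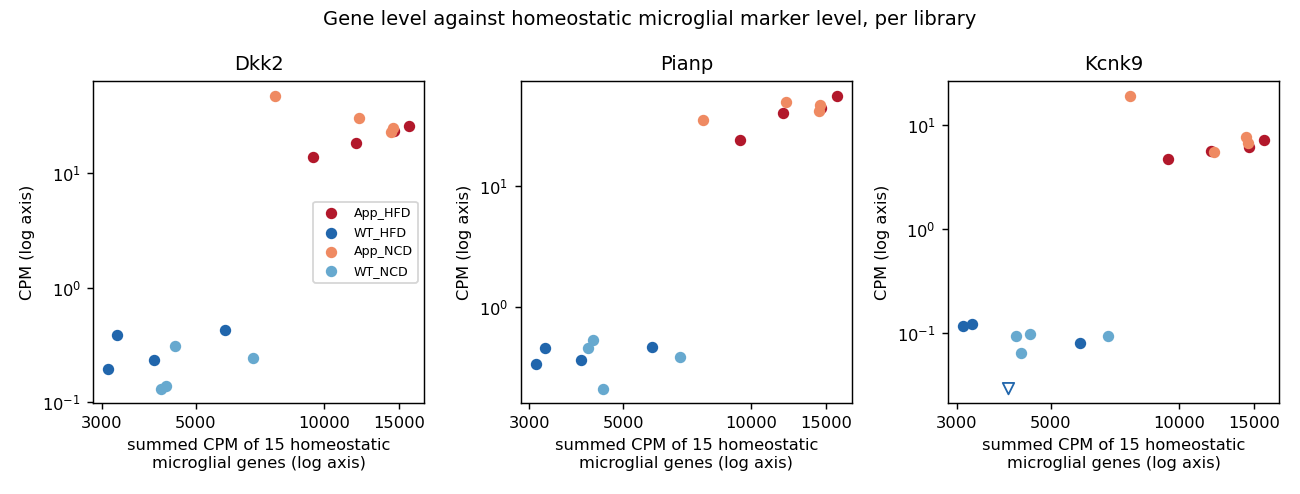
Level of each gene (CPM, log axis) against the summed CPM of 15 homeostatic microglial genes (log axis), 1 point per library. The hollow triangle is the Kcnk9 count of 0 in WT_HFD 2, drawn at its limit of 3 counts over the unadjusted library total. Knock-in sums (7677 to 15870) lie above wild-type sums (3113 to 6809), with a far larger step in each of the 3 genes.

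Lists of other cells held few genes that were higher in App_HFD, where 5.09% of all genes tested were higher and 2.05% lower. Of 10 neuronal genes 0 passed edgeR's test on the high-fat diet (lowest adjusted p 0.0671, of Syt1), with sums of 16.2 to 17.8 CPM in App_HFD against 20.1 to 22.8 CPM in WT_HFD. Of 8 border macrophage genes 0 passed (lowest adjusted p 0.119, of Lyve1), with sums of 519 to 648 CPM in App_HFD against 282 to 562 CPM in WT_HFD. Of 8 astrocyte genes 0 passed, with 2204 to 3439 CPM in App_HFD against 3223 to 4646 CPM in WT_HFD. Choroid plexus and ependymal genes were lower, 5 of 8, with sums of 7270 to 15060 CPM in App_HFD against 18130 to 37010 CPM in WT_HFD. None of the 8 was called with oligodendrocyte scaling, which called 39 of all genes lower, against 446 with TMM. Of 8 endothelial genes 1 was lower (Pecam1), and of 7 pericyte and smooth muscle genes 1 was lower (Acta2), calls that were lost in 5 and 2 of the 16 fits that left out a library. Without App_NCD 553, 3 endothelial genes and 3 pericyte and smooth muscle genes were lower, as were 7 of the 8 choroid plexus and ependymal genes. That fit called 2401 of all genes higher and 1906 lower. In that fit 1 border macrophage gene was higher, 1 neuronal gene lower, 1 astrocyte gene higher and another 1 lower, and 2 leptomeningeal fibroblast genes lower. Among 9 tested genes of T, B and NK cells and neutrophils, Klrb1c, an NK receptor gene, was higher at 2.86 CPM in App_HFD against 0.0446 CPM in WT_HFD, and the B cell gene Cd79a was lower, which was lost without any of App_HFD 559, 560 or 561 or WT_HFD 16. Of 8 precursor and newly formed oligodendrocyte genes Cspg4 was higher and Pdgfra lower (2 lower without App_NCD 553), and of 6 leptomeningeal fibroblast genes 0 passed with all libraries. The part of these differences in the levels of Dkk2, Pianp and Kcnk9 was not tested.

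Over the 16 libraries, the 5 profiles nearest to each of Dkk2, Pianp and Kcnk9 were those of plaque-state microglial genes and of Dkk2 or Pianp; Kcnk9 itself was only number 13 for Dkk2 and 17 for Pianp. Likeness was the root mean square distance between centred log2 CPM profiles, over the 14816 genes that averaged 1 CPM or more. It is a description, because genotype dominates the profiles and they include the control-diet values that chose Dkk2, Pianp and Kcnk9. Gpnmb, Itgax, Spp1 and Lpl are among the same 25 genes with a control-diet log2 fold change over 6. Likeness to them was therefore partly set by the choice. Nearest to Dkk2 were Gpnmb at 0.467 log2 units, Lpl at 0.516, Spp1 at 0.577, Itgax at 0.619 and Pianp at 0.637. Nearest to Pianp were Itgax at 0.393, Spp1 at 0.399, Gpnmb at 0.438, Lpl at 0.531 and Dkk2 at 0.637. Nearest to Kcnk9 were Spp1 at 1.04, Gpnmb at 1.09, Dkk2 at 1.10, Pianp at 1.16 and Lpl at 1.19, larger distances that include its count of 0. Lpl is lipoprotein lipase, Spp1 osteopontin and Itgax the integrin CD11c. Spp1 was at 313 to 819 CPM in App_HFD against 5.42 to 14.0 CPM in WT_HFD. Itgax was at 508 to 800 CPM in App_HFD and at 4.34 to 7.54 CPM in WT_HFD. Lpl was at 247 to 462 CPM in App_HFD and at 3.07 to 11.9 CPM in WT_HFD. For these genes too, the groups did not overlap. Without App_NCD 553, 4 of the 5 nearest genes were the same for Dkk2, 3 for Pianp and 4 for Kcnk9. The newcomers, none of them on the plaque-state list, were Pdcd1 for Dkk2, Lgi2 and Il4i1 for Pianp, and Il4i1 for Kcnk9. Lgi2 and Il4i1 are also among the 25 genes over 6. Pianp was then number 6 for Dkk2 and Dkk2 number 8 for Pianp.

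**Figure D3:**
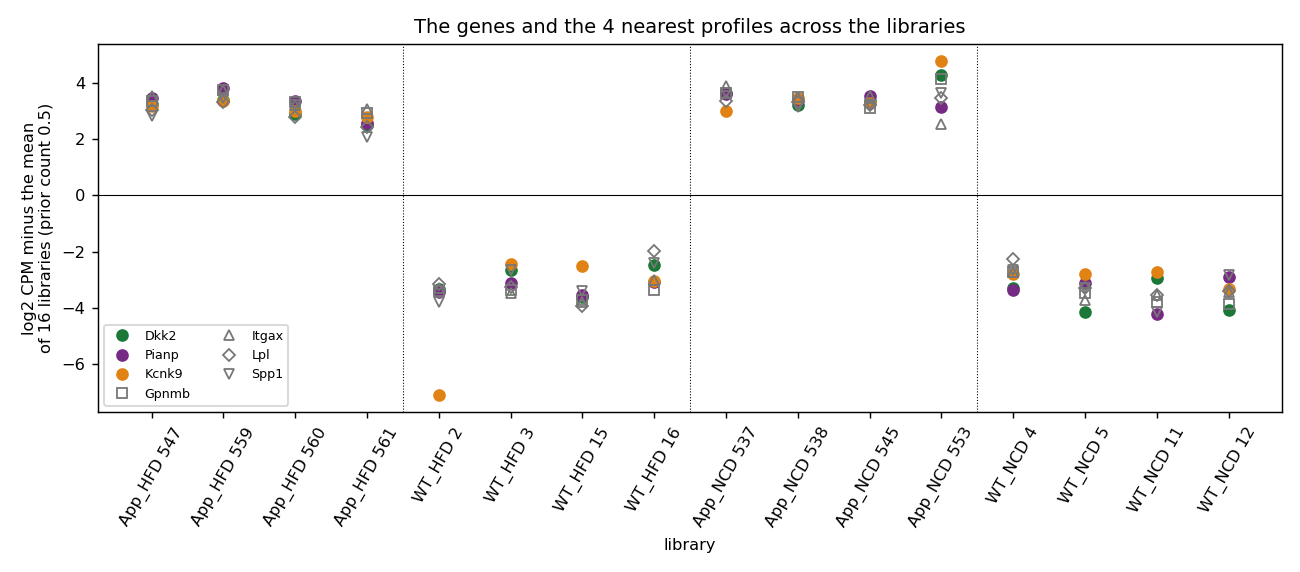
Log2 CPM of Dkk2, Pianp, Kcnk9 (filled) and the 4 other genes nearest to them (Gpnmb, Itgax, Lpl, Spp1; open), each minus its mean over the 16 libraries, by library. All 7 genes lie above 0 in the 8 App libraries and below 0 in the 8 WT libraries; Kcnk9 in WT_HFD 2 lies lowest, and 553 shows the widest spread among the App libraries.

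Among the tested Dickkopf genes and their receptors, no other gene had a log2 fold change near that of Dkk2. Of 5 tested genes among 9 Dickkopf genes and receptors, Dkk2 was higher and Dkk3 lower on the high-fat diet. Of all genes tested, 5.09% were higher and 2.05% lower. Dkk3, a divergent Dickkopf that is expressed by astrocytes and neurons, was at 14.0, 21.7, 20.7 and 21.4 CPM in App_HFD against 29.5, 35.8, 39.0 and 35.1 CPM in WT_HFD. Its log2 fold change was -0.84 ± 0.18 (SE), with an edgeR adjusted p of 0.00757, which became 0.235 when libraries were scaled to oligodendrocyte genes. That scaling called 39 of all genes lower, against 446 with TMM. Dkk1 was listed at 0 in all 16 libraries, and Dkk4, Dkkl1 and Kremen2 lay below the filter on low counts. The receptors did not pass edgeR's test. Lrp6 was at 164 CPM in App_HFD against 213 CPM in WT_HFD (log2 fold change -0.37, adjusted p = 0.686). Lrp5 was at 63.7 CPM in App_HFD against 57.4 CPM in WT_HFD (0.15, adjusted p = 0.794). Kremen1 was at 34.2 CPM in App_HFD against 38.3 CPM in WT_HFD (-0.16, adjusted p = 0.780).

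Other secreted Wnt inhibitors moved in both directions, with 2 of 8 tested higher and 1 lower in App_HFD, against 5.09% and 2.05% of all genes tested. Without App_NCD 553, 2 were higher and 2 lower, in a fit that called 2401 of all genes higher and 1906 lower. Wif1, which binds Wnt proteins directly, was at 0.662, 1.72, 0.886 and 0.684 CPM in App_HFD against 0, 0, 0.175 and 0.0700 CPM in WT_HFD. Its control-diet log2 fold change of 6.07 puts it among the same 25 genes over 6. On the high-fat diet its log2 fold change was 3.99 ± 1.02 (SE) with an edgeR adjusted p of 0.0257, and that call was lost when App_HFD 559, WT_HFD 2, WT_HFD 3 or WT_HFD 16 was left out. Frzb, a Frizzled-related inhibitor, was at 17.3 to 20.0 CPM in App_HFD against 4.79 to 8.81 CPM in WT_HFD, with a log2 fold change of 1.51 (adjusted p = 0.00182, edgeR) that became -0.01 with homeostatic microglial scaling, where the median of all genes was -1.46. Sfrp1, of the same family, was lower by -1.05 (adjusted p = 0.0227), and that call was lost without any of App_HFD 547, 559 or 561 or WT_HFD 2.

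Of 13 Wnt receptor genes 3 were lower and 0 higher on the high-fat diet, where 2.05% of all genes tested were lower and 5.09% higher. Without App_NCD 553, 5 were lower, in a fit that called 1906 of all genes lower, against 446 with all libraries. Fzd6 was at 11.7 CPM in App_HFD against 22.8 CPM in WT_HFD (edgeR adjusted p = 0.00136). Fzd4 was at 50.5 CPM in App_HFD against 89.8 CPM in WT_HFD (adjusted p = 0.00506), and Ror1 at 3.81 CPM in App_HFD against 6.94 CPM in WT_HFD (adjusted p = 0.0256). None of these 3 calls held with oligodendrocyte scaling, where edgeR adjusted p were 0.0543 for Fzd6, 0.142 for Fzd4 and 0.170 for Ror1. That scaling called 39 of all genes lower, against 446 with TMM, and moved the median of all genes to 0.18. Of 12 general targets of β-catenin, Ccnd1 (cyclin D1) was higher and Axin2, a negative feedback gene of the pathway, was lower; without App_NCD 553, 1 was higher and 4 lower. Ccnd1 had a log2 fold change of 1.21 (adjusted p = 0.00508, edgeR), which was -0.25 with homeostatic microglial scaling, where the median of all genes was -1.46. Axin2 had one of -0.62 (adjusted p = 0.0343), and leaving out 1 of 6 libraries ended that call. Of 13 tested Wnt ligands Wnt6 alone was called, at 1.10 (adjusted p = 0.0479, edgeR), and it was called in 3 of 16 fits that left out a library. Homeostatic microglial scaling gave Wnt6 -0.42, against the same median of -1.46.

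Among 5 partners of Pianp, Pilra was higher in App_HFD and the other 4 did not pass, where 5.09% of all genes tested were higher. Pilra, which encodes the inhibitory receptor PILRα, was at 4.96, 6.34, 4.49 and 4.46 CPM in App_HFD against 1.27, 1.35, 1.39 and 2.63 CPM in WT_HFD. The groups did not overlap, and the log2 fold change was 1.61 ± 0.38 (SE), with an edgeR adjusted p of 0.0172, or 0.00330 without App_NCD 553. That call was lost without App_HFD 559, WT_HFD 2, WT_HFD 3 or WT_HFD 15. Homeostatic microglial scaling gave Pilra 0.20, where the median of all genes was -1.46. The activating receptors Pilrb1 and Pilrb2 were at 0.199 and 0.431 CPM in App_HFD against 0.2295 and 0.659 CPM in WT_HFD, with adjusted p of 0.968 and 0.776 (edgeR). The GABA-B subunits were at 223 CPM in App_HFD against 242 CPM in WT_HFD for Gabbr1 (adjusted p = 0.721) and at 34.3 CPM in App_HFD against 50.4 CPM in WT_HFD for Gabbr2 (adjusted p = 0.686).

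Of 4 signalling genes of the PILR receptors, 2 were higher and 0 lower, against 5.09% and 2.05% of all genes tested. Tyrobp, the adaptor DAP12, was at 867 CPM in App_HFD against 65.3 CPM in WT_HFD (adjusted p = 8.52e-06, edgeR), and Ptpn6, the phosphatase SHP-1, at 111 CPM in App_HFD against 29.1 CPM in WT_HFD (adjusted p = 0.00169). Syk and Ptpn11 did not pass, at 0.73 and 0.11 on the log2 scale. Of 3 other PILRα ligands none passed: Colec12 had a log2 fold change of 0.76 (edgeR adjusted p = 0.0563, or 0.00847 without App_NCD 553). With homeostatic microglial scaling it was -0.72, where the median of all genes was -1.46. Npdc1 had -0.39 and Cd99l2 -0.23, and without 553 both were called lower, with adjusted p of 0.0266 and 0.0257 (edgeR).

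Kcnk9 was the sole one of 12 tested two-pore-domain channel genes to pass edgeR's test on the high-fat diet; DESeq2 also called Kcnk6 (adjusted p = 0.0210) and Kcnk1 (adjusted p = 0.0480). Kcnk3, its closest relative, was at 1.43, 2.09, 1.30 and 0.946 CPM in App_HFD against 0.320, 0.527, 0.640 and 0.600 CPM in WT_HFD. Although the groups did not overlap, its log2 fold change of 1.46 ± 0.70 (SE) had an edgeR adjusted p of 0.292. Kcnk3 was at 0 in App_NCD 553, and without that library the edgeR adjusted p was 0.00188. Homeostatic microglial scaling gave a log2 fold change of -0.08, where the median of all genes was -1.46. Kcnk6 (TWIK-2) was at 70.8 CPM in App_HFD against 36.2 CPM in WT_HFD, with an adjusted p of 0.0556, or 0.00892 without 553, and a log2 fold change of 0.97 that was -0.48 with homeostatic microglial scaling. Kcnk13 (THIK-1), a main background potassium channel of microglia, was at 50.4 to 58.4 CPM in App_HFD against 50.4 to 69.7 CPM in WT_HFD (log2 fold change -0.15, adjusted p = 0.922).

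Kcnk1 (TWIK-1) was at 122 CPM in App_HFD against 204 CPM in WT_HFD (adjusted p = 0.0997, or 0.00391 without 553, edgeR). The other 7 tested had mean levels of 0.0790 CPM (Kcnk18) to 5.44 CPM (Kcnk2) in App_HFD and 0.249 CPM (Kcnk7) to 8.23 CPM (Kcnk2) in WT_HFD. Their log2 fold changes were -0.60 for Kcnk2, -0.28 for Kcnk4, -0.25 for Kcnk5, -0.31 for Kcnk7, -0.71 for Kcnk10, -0.23 for Kcnk12 and -1.90 for Kcnk18, and none passed. Kcnk15 and Kcnk16 were listed at 0 in both high-fat groups. Without 553, 3 of the family were called higher and 3 lower on the high-fat diet. That fit called 2401 of all genes higher and 1906 lower, against 1108 and 446 with all libraries. Of 6 other potassium channel genes described in microglia, Kcnj2, the inward rectifier Kir2.1, was higher at 58.1 CPM in App_HFD against 9.33 CPM in WT_HFD (log2 fold change 2.64, adjusted p = 6.62e-07). It stayed higher, at 1.19, with homeostatic microglial scaling, where the median of all genes was -1.46. Kcnma1, the BK channel, had 0.77 (adjusted p = 0.0275), lost without any 1 of 6 libraries and -0.66 under that scaling, and Kcna3 (Kv1.3) had 1.01 (adjusted p = 0.0728), which was -0.50 under that scaling; without App_NCD 553, 3 of the 6 were higher.

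**Figure D4:**
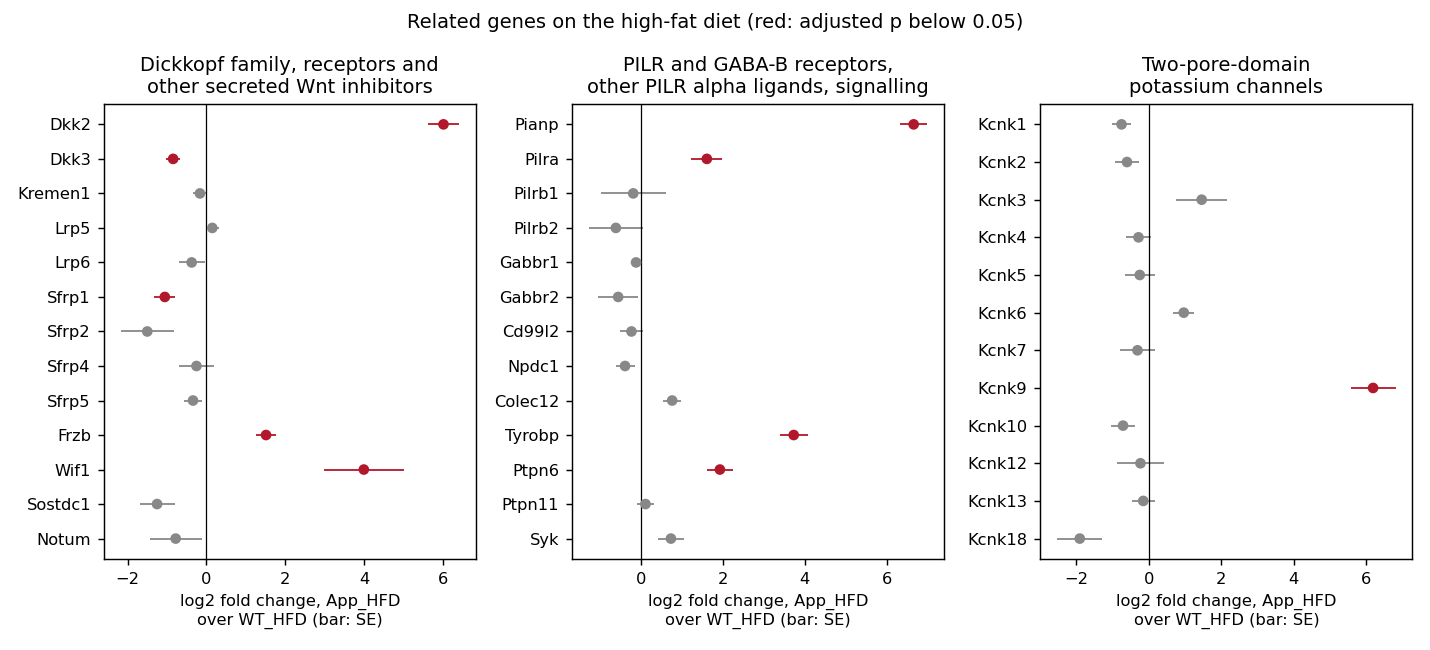
Log2 fold change of App_HFD over WT_HFD with its SE (bar) for the tested genes of each family; red points have an edgeR adjusted p below 0.05. Dkk2, Pianp and Kcnk9 lie past 6 and the next, Wif1 and Tyrobp, at 3.99 and 3.73; with homeostatic microglial scaling Frzb (-0.01), Kcnk3 (-0.08), Kcnk6 (-0.48) and Colec12 (-0.72) fall to 0 or below, where all genes have a median of -1.46.

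The steps were not shared by the genes' chromosomal neighbours. Of the 3 protein-coding genes on each side of each gene, 17 of 18 were tested. Of these, 0 were higher and 2 lower in App_HFD (without App_NCD 553, 1 was higher), against 5.09% and 2.05% of all genes tested. The 17 had log2 fold changes of -1.12 to 0.58. Their median was 0.06, against 0.01 over all genes, and -1.41 with homeostatic microglial scaling, against -1.46 over all genes. Zfp384, whose annotated start is 6.0 kb beyond the end of Pianp, was at 46.6 CPM in App_HFD against 39.3 CPM in WT_HFD (0.25, adjusted p = 0.528, edgeR). On its other side Cops7a had 0.11, Mlf2 0.06 and Ptms 0.58, and beyond Zfp384 Ing4 had 0.06 and Acrbp 0.05. Around Dkk2, Papss1 had -0.07, Aimp1 0.16 and Tbck 0.29, and Gimd1 was too low to test. Sgms2, a sphingomyelin synthase gene 593.9 kb from Dkk2, was lower at 40.7 CPM in App_HFD against 88.3 CPM in WT_HFD (adjusted p = 0.0189), which was lost without App_HFD 547, App_HFD 561 or WT_HFD 2. Cyp2u1 was lower by -0.51 (adjusted p = 0.0490), a call kept in 6 of 16 fits that left out a library.

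Kcnk9 belongs to an imprinted cluster, and its other 4 members did not pass. Trappc9, 43.3 kb from Kcnk9, was at 51.1 CPM in App_HFD against 51.7 CPM in WT_HFD (log2 fold change -0.02, adjusted p = 0.995, edgeR). Peg13, a paternally expressed non-coding RNA, was at 80.4 to 97.3 CPM in App_HFD against 86.9 to 95.5 CPM in WT_HFD (-0.06, adjusted p = 0.939). Chrac1 had 0.37 (adjusted p = 0.696) and Ago2 0.24 (adjusted p = 0.316). On the other side, Col22a1 had -0.32, Fam135b 0.22 and Khdrbs3 -0.09.

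**Figure D5:**
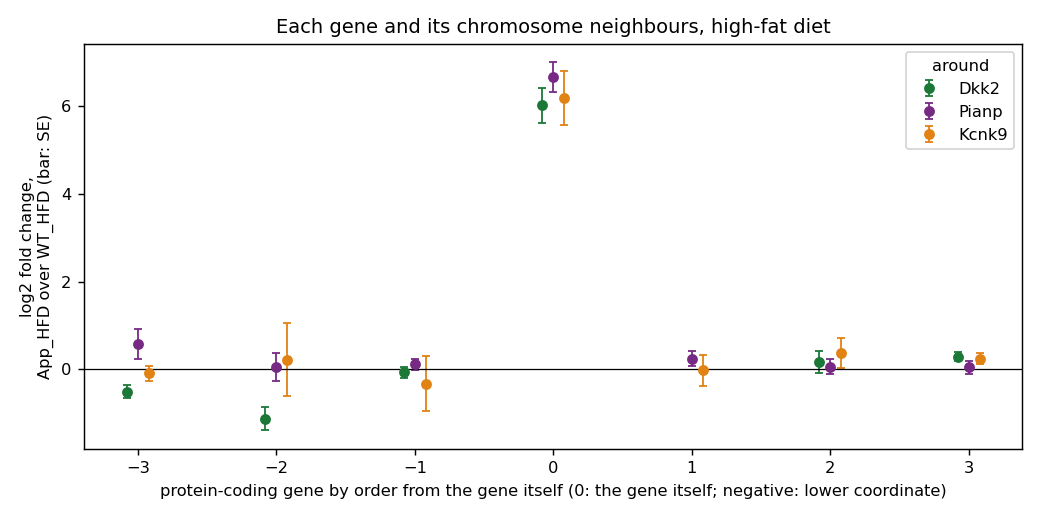
Log2 fold change of App_HFD over WT_HFD with its SE (bar) for each gene (position 0) and the 3 protein-coding genes on each side in gene order. Dkk2, Pianp and Kcnk9 lie at 6.01, 6.66 and 6.19, and the tested neighbours between -1.12 and 0.58; Gimd1, beside Dkk2, was not tested and has no point.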

How the data were processed

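Poly(A) RNA of sorted oligodendrocyte-lineage cells was sequenced as directional libraries from 16 mice, per the labels' protocols. The authors deposited 1 table of estimated counts per gene and library, all whole numbers; rounding changed nothing. The submitters' processing notes name fastp 0.23.2, HISAT2 2.2.1, mm10, StringTie 2.2.1 and bedtools 2.25.0; the annotation counted against is not given in the sources used here. StringTie derives counts from coverage and transcript length. Of the 53801 IDs, 99.7% were in GENCODE M21, which gave positions and exon lengths.

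Counts were filtered with filterByExpr (21768 genes left), scaled by TMM and tested with edgeR 4.0.16 (limma 3.58.1, R 4.3.3): quasi-likelihood, robust dispersions, 4 groups of 4 libraries, 12 residual degrees of freedom, Benjamini-Hochberg adjustment over all genes tested, threshold 0.05. The procedure was tested on simulated counts. CPM uses TMM-adjusted totals, log2 CPM a prior count of 0.5. Standard errors come from the log2 fold change and F. Nothing says that the libraries share a litter or day; each is 1 mouse number. Intervals and limits cover counting error only.

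Dkk2, Pianp and Kcnk9 and all gene lists were chosen with earlier results of these data known. Named besides were App, all detected genes of the Dickkopf, Pianp partner, two-pore channel and imprinted cluster lists, up to 4 called genes of other lists by adjusted p (or, with none called, up to 2 by level), the 5 nearest profiles, 3 neighbours a side and 4 genes around the limit of 6; some named by the rule are left as counts or are not reported here. Syk, Ptpn11, Kcna3, Npdc1, Cd99l2 and Colec12 were named beyond it after their values were seen. Alternatives were RLE factors, library totals, oligodendrocyte and homeostatic microglial scaling, other filters, non-robust dispersions, DESeq2 1.42.0, limma-voom with quality weights, each diet's 8 libraries alone and each library left out. Calls of lists and neighbours under scalings and left-out libraries were added after seeing the data.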

Additional observations from a re-analysis of the deposited data

Results flagged for a closer look

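Kcnk9 in App_NCD 553 was at 19.0 CPM, far above the 5.44 to 7.56 CPM of the other 3 App_NCD libraries. A TMM factor of 0.493 raises that value: in counts 553 held 669, against 464 to 626 in the other 3. Kcnk9 in WT_NCD 12 was at 0.0643 CPM, below the 0.0938 to 0.0986 CPM of the other 3 WT_NCD libraries, and it rests on 7 counts. Both were picked out as a single library far from the rest of its group of 4, which chance does in about 1 of 20 groups. The log2 fold change of Kcnk9 on the high-fat diet was 6.17 without App_NCD 553.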

How the results depend on the processing

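On the high-fat diet Dkk2 and Pianp were called higher in the knock-in in all 27 alternatives, with log2 fold changes of 4.54 to 6.21 and 5.14 to 6.86, and Kcnk9 in all 26 that gave it a value, with 4.66 to 6.45. A filter of 10 counts in every library removed Kcnk9. Leaving out 1 library gave 5.82 to 6.17, 6.45 to 6.82 and 5.75 to 6.45, and the largest adjusted p over all alternatives were 2.09e-05, 4.45e-06 and 0.000301. On the control diet, homeostatic microglial scaling moved the described values to 6.39, 5.73 and 6.05, and oligodendrocyte scaling moved Kcnk9 to 7.30; leaving out 1 library gave 6.17 to 6.92 for Kcnk9 there and -0.91 to -0.15 for its diet difference in the knock-in.

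Counts over all genes moved more. Genes called higher on the high-fat diet numbered 1108 and were 639 with library totals, 228 with homeostatic microglial scaling, 3781 with limma-voom, 2478 with the 8 libraries alone and 673 to 2401 with 1 library left out. Those called lower numbered 446 and were 39 with oligodendrocyte scaling, 16248 with homeostatic scaling, 968 with DESeq2, 2891 with limma-voom, 2338 with 8 libraries and 144 to 1906 with 1 left out. On the control diet 1416 were higher, against 525 with totals, 3101 with oligodendrocyte and 455 with homeostatic scaling, 2213 with DESeq2, 4036 with limma-voom, 491 with 8 libraries and 746 to 2288 with 1 left out. There 410 were lower, against 61 with oligodendrocyte and 11136 with homeostatic scaling, 254 with no filter, 1184 with DESeq2, 3195 with limma-voom, 14 with 8 libraries, 258 without WT_NCD 4 and WT_HFD 16, and 152 to 1612 with 1 left out. Causes were not tested. No paired analysis was possible because no mouse number occurs in more than 1 group. Wild-type levels of the 3 genes rest on 0 to 91 counts.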
